A study of Mus musculus with 2 samples.

Results

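The 10 genes described here mark or maintain stem and progenitor cells of the blood; they were followed in a pair of murine leukaemias of the promyelocyte, APL#2 and APL#1, and all 10 were found by symbol among the 23235 genes of the deposited table. They are Cd34, Kit, Flt3, Gpr56 (the older symbol of Adgrg1), Lmo2, Erg, Meis1, Hoxa9, Bmi1 and Msi2. The series describes the leukaemias as clones that differ in how often their cells can start the disease again, and the sources used here do not say which of them has more such cells. RNA came from CD45.2+ leukaemic cells purified from spleen on immunomagnetic columns, with 1 library for each leukaemia. APL#2 was grown from 200000 injected cells and APL#1 from 2000000, in CD45.1+ recipients that had not been irradiated and so kept their own blood cells. Thus dose and leukaemia cannot be told apart. Both arose in C57BL/6-Ly5.2 mice carrying the PML-RAR fusion, called mCG-PML-RAR transgenic in one label and knock-in in another; mCG is the usual name for the mouse cathepsin G locus, which is active in promyelocytes. Both samples are labelled as 10 weeks old and untreated, although their titles carry the letters VEH. Per the labels each leukaemia came from 1 mouse, so a difference between the libraries cannot be assigned to the clone, the recipient or the library.

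In normal blood formation, the receptor tyrosine kinases Kit and Flt3 and the sialomucin Cd34 each lie on the surface of subsets of stem and progenitor cells. They are lost as granulocytes mature. Transcription factors such as Erg and Meis1, the adaptor protein Lmo2 and the homeodomain protein Hoxa9 maintain the immature state, while Bmi1 silences genes that would stop self-renewal and Msi2 controls the translation of its target RNAs. Acute promyelocytic leukaemia is driven by PML-RAR, which blocks cells at the promyelocyte stage of granulocyte development.

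Levels are in FPKM, fragments normalised for transcript length and sequencing depth, and can be compared between genes. Differences are log2((FPKM in APL#2 + 1)/(FPKM in APL#1 + 1)), and a printed fold or ratio is a plain ratio of FPKM. A gene is called 2-fold apart by the log2(FPKM + 1) difference unless plain ratios are named. A gene is called measured where its FPKM, averaged over the pair of libraries, was 1 or more, which held for 4100 genes. From genes with very low values, 1 fragment on 1 kb of transcript was worth about 0.0180 FPKM in APL#2 and 0.0195 FPKM in APL#1. Intervals given below are 95% intervals for counting error only (exact Poisson for levels, exact binomial for ratios), from fragments estimated on the longest coding transcript; they hold nothing of the variation between mice, cells or library preparations. With 1 library for each leukaemia no test was possible. Of 11 promyelocyte genes, 10 were measured, led by Mpo (157 FPKM in APL#2 and 662 FPKM in APL#1), and Ptprc, which encodes CD45, stood at 4.10 FPKM in APL#2 and 4.66 FPKM in APL#1. The promyelocyte genes summed to 217 FPKM in APL#2 and 749 FPKM in APL#1, most of it Mpo. At least 2-fold lower in APL#2 were 3 of the 10 (Mpo, Elane and Prss57), beside 2.44% of all measured genes. Lower FPKM in APL#2 was found for 8 of the 10, beside 71.6% of all measured genes. The other 2 were Ms4a3 (15.9 FPKM in APL#2 and 7.85 FPKM in APL#1) and Ctsg (8.99 FPKM in APL#2 and 7.89 FPKM in APL#1). The part of these differences in the members' values was not tested.

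The 10 genes were expressed at low to moderate levels, and 5 of them were measured: Cd34, Gpr56, Lmo2, Erg and Kit. No member reached 10 FPKM in either library. In APL#2 the order from the top was Cd34, Gpr56, Lmo2, Erg, Kit, Msi2, Bmi1 and Flt3. In APL#1 it was Gpr56, Cd34, Lmo2, Erg, Kit, Bmi1, Msi2 and Flt3. Gpr56 (3.08 FPKM, interval 2.85 to 3.34) and Lmo2 (3.03 FPKM, interval 2.70 to 3.41) could not be told apart in APL#2, whereas in APL#1 the intervals of Gpr56 (8.25 to 9.10), Cd34 (7.06 to 8.003) and Lmo2 (6.33 to 7.44) overlapped only for Cd34 and Lmo2. On the shortest coding transcripts, with about 132 fragments for Gpr56 and 169 for Lmo2 in APL#1, the interval of Gpr56 was 7.26 to 10.3 and overlapped those of Cd34 and Lmo2, so their order is not settled. Meis1 and Hoxa9 were listed at 0 in both libraries.

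**Figure D1:**
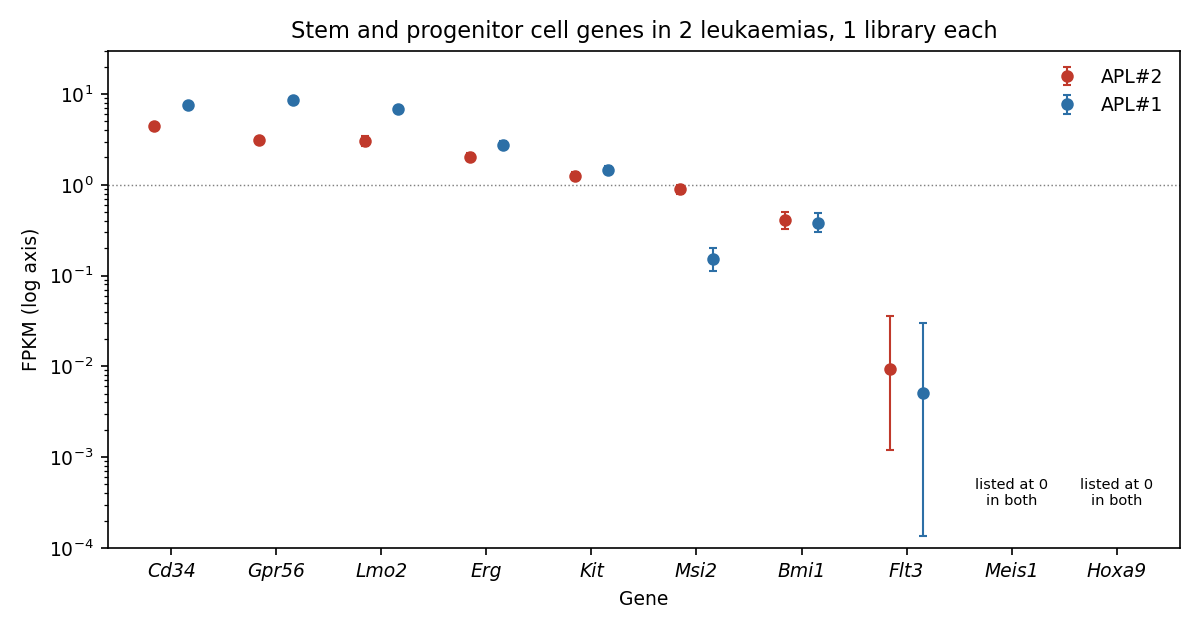
Level of each of the 10 genes in APL#2 (red, left) and APL#1 (blue, right), in FPKM on a log axis, with 95% counting intervals and a dotted line at 1 FPKM. Gpr56 stands at 3.08 and 8.67 FPKM in APL#2 and APL#1, Msi2 at 0.895 and 0.151 FPKM, and Meis1 and Hoxa9 are listed at 0.

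All 5 measured members had lower FPKM in APL#2, as did 71.6% of all measured genes, and 4 of them lay below the median difference of all measured genes, which was -0.17. One of the 5, Gpr56, was at least 2-fold lower in APL#2 on the log2(FPKM + 1) scale, as were 2.44% of the 4100 measured genes. No member was 2-fold or more higher on this scale, against 2.10% of the measured genes. As plain ratios, Gpr56 and Lmo2 were at least 2-fold lower, against 6.32% of the 4050 measured genes above 0 in both libraries, and no measured member was 2-fold or more higher, against 2.79%. The median difference of the 5 was -0.66. Relative to the median of all genes the differences were -1.07 for Gpr56, -0.79 for Lmo2, -0.49 for Cd34, -0.14 for Erg and 0.05 for Kit.

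**Figure D2:**
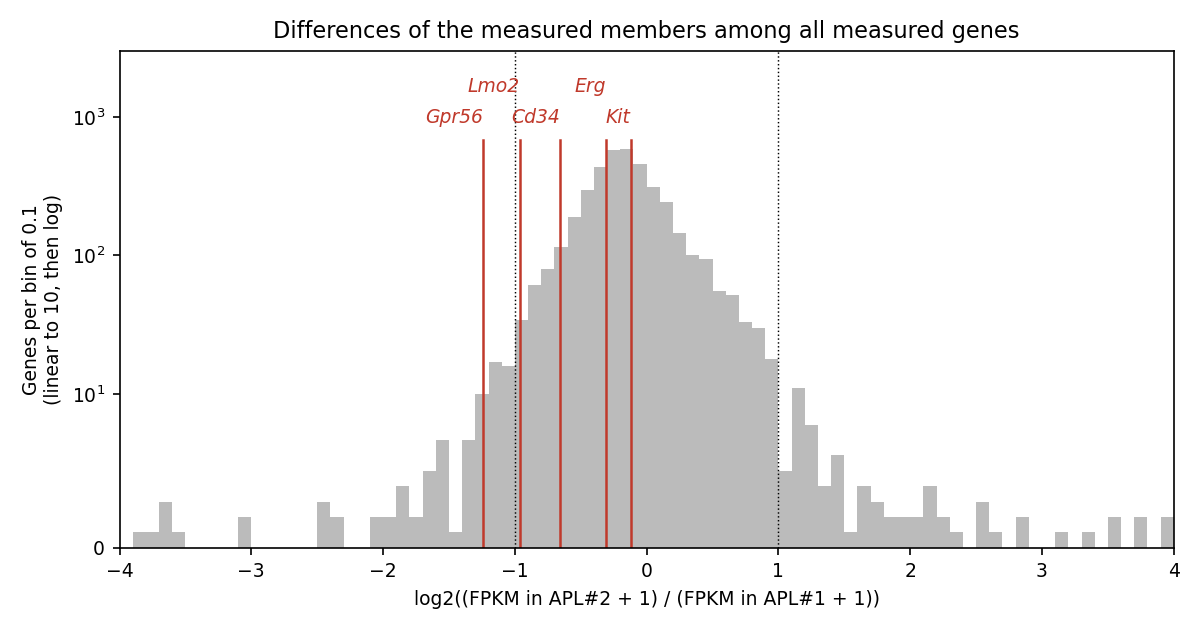
Histogram of the log2 difference, APL#2 over APL#1, of all measured genes in bins of 0.1 (grey; the axis is linear to 10 genes and logarithmic above, and 31 genes lie outside the plotted range), with the 5 measured members as red lines and 2-fold marked by dotted lines. Gpr56 at -1.24 lies left of the 2-fold line and Kit at -0.12 lies in the bulk of all genes.

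Among the surface molecules, Gpr56 differed most. It encodes an adhesion G protein-coupled receptor of stem and progenitor cells and lies on mm9 chromosome 8, from 97501008 to 97538108. It stood at 3.08 FPKM in APL#2 and 8.67 FPKM in APL#1, on about 620 and 1611 fragments, a level 2.81-fold higher in APL#1 (counting interval 2.56 to 3.09, or 2.01 to 3.95 on the shortest coding transcript). Its log2 difference of -1.24 was reached or passed by 63 of the 4100 measured genes (1.54%). In the authors' deposited table Gpr56 had a p-value of 0.0224 and a q-value of 1.00 after rounding, and it was the 1 member with p of at most 0.05 there, as were 1.56% of all measured genes. The standard error that the authors' deposited table implies for its plain log2 ratio of -1.49 was 0.65.

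The receptor gene next to Gpr56 did not share its difference. Gpr97, another adhesion G protein-coupled receptor gene, begins 3.48 kb beyond the end of Gpr56 and stood at 15.6 FPKM in APL#2 and 18.9 FPKM in APL#1, a log2 difference of -0.26. On the other side, Coq9, of coenzyme Q synthesis, stood at 1.76 FPKM in APL#2 and 1.83 FPKM in APL#1, and Arl2bp at 0.956 FPKM in APL#2 and 1.77 FPKM in APL#1; beyond Gpr97, Gtl3 stood at 1.28 FPKM in APL#2 and 1.33 FPKM in APL#1. The 20 measured genes nearest to Gpr56 had a median difference of -0.13 and a range of -0.64 to 1.62, so none was as low as Gpr56. The top of that range was held by the metallothionein genes Mt1 and Mt2, picked once their values were known.

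Promoter sequences of the surface genes with the lowest differences, Gpr56 and Cd34, are shown because these genes were lower in APL#2 by more than the genes around them. RefSeq gives Gpr56 more than 1 start on GRCm38.p6, and each window runs from 250 bases before a start to 50 after it, on the plus strand; capitals mark GGAA, the core of ETS factor sites, and GATAA, the core of GATA factor sites, on either strand. The windows of Gpr56 are chr8:94976859-94977158 and chr8:94984149-94984448, and that of Cd34 is chr1:194938571-194938870.
Gpr56, start 1: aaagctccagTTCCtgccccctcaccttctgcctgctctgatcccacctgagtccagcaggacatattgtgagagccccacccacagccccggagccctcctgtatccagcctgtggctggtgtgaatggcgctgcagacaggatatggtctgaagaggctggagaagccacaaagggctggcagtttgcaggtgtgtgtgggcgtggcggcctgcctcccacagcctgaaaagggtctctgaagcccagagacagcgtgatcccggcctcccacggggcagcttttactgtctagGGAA
Gpr56, start 2: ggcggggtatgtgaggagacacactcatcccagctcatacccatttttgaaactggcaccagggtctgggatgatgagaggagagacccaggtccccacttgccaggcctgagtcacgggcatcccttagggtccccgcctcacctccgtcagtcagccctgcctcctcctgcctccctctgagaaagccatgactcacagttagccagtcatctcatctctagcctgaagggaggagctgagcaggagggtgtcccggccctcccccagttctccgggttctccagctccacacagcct
Cd34: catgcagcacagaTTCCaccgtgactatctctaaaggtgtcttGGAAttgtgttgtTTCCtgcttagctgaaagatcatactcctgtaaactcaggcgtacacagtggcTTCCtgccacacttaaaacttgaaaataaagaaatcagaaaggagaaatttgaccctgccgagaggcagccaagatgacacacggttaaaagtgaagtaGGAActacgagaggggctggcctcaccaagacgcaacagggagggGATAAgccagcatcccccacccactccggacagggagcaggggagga

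The first Gpr56 window held 2 matches to GGAA and none to GATAA, and the second held none of either. The Cd34 window held 5 matches to GGAA and 1 to GATAA. Such matches are common: GGAA occurred in 96% and GATAA in 25.4% of 32851 RefSeq promoter windows of the same length. Neither gene had a match to TGTGGT (the Runx core, in 16.8% of all windows) or TGACAG (the Meis core, in 19.2%). The E-box CANNTG, in 72.3% of all windows, matched 2 times and 1 time in the Gpr56 windows and not in that of Cd34. Base composition differed too, with 60.7% G and C in each Gpr56 window and 50% in that of Cd34, against a median of 52.7% over all windows. RefSeq windows were found for 9 of the 10 members.

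Cd34, the sialomucin used to isolate progenitors, stood at 4.40 FPKM in APL#2 and 7.52 FPKM in APL#1, on about 625 and 987 fragments. It was 1.71-fold higher in APL#1 (counting interval 1.54 to 1.89), with a log2 difference of -0.66 that 7.95% of measured genes reached or passed. The standard error implied by the authors' deposited table was 0.83, larger in size than the plain log2 ratio of -0.77. Cd34 lies near the end of chromosome 1 (mm9, 196765014 to 196803153), and its 12 nearest measured genes had a median difference of -0.07, with none as low as Cd34. The locus overlaps that of Gm16897, which stood at 0.166 FPKM in APL#2 and 0.139 FPKM in APL#1; whether reads were assigned by strand is not given. The sialomucin genes Podxl and Podxl2 were at or near 0.

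Kit, the receptor for stem cell factor, was nearly level between the leukaemias. It stood at 1.26 FPKM in APL#2 and 1.46 FPKM in APL#1, on about 368 and 394 fragments, a ratio of 0.865 (counting interval 0.747 to 0.998). Its log2 difference of -0.12 lay close to that of its 20 nearest measured genes on chromosome 5 (median -0.15) and turned to 0.03 when values were divided by the median ratio of all genes. Flt3, the receptor for Flt3 ligand, had hardly any signal in either library, at 0.00937 FPKM in APL#2 and 0.00507 FPKM in APL#1. These values correspond to about 2 fragments in APL#2 and 1 fragment in APL#1, and the counting interval of the ratio ran from 0.0963 to 109, so no difference was detectable at this depth.

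Signalling genes around Kit and Flt3 lay near the bulk of all genes, with Pim1 lowest. Of 27 ligand, adaptor, kinase, phosphatase and STAT genes, 10 were measured, none of them at least 2-fold apart on the log2(FPKM + 1) scale, with a median difference of -0.09 against -0.17 for all genes. The phosphatase gene Ptpn6, a negative regulator of receptor signalling, stood at 6.19 FPKM in APL#2 and 4.77 FPKM in APL#1. Its difference was 0.32, and the measured genes nearest to it on chromosome 6 had a median of 0.15. The adaptor gene Grb2 stood at 2.57 FPKM in APL#2 and 3.64 FPKM in APL#1, and Inpp5d, which encodes the lipid phosphatase SHIP, at 2.48 and 2.75 FPKM in APL#2 and APL#1. The kinase gene Pim1, picked once its values were known, had the lowest difference of the measured genes in this list (-0.71), at 0.731 FPKM in APL#2 and 1.83 FPKM in APL#1, 2.503-fold higher in APL#1.

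No measured gene of the Gpr56 pathway (ligands, tetraspanin partners, G proteins and exchange factors among them) was as low as Gpr56, as few measured genes were (1.54%). Of 11 listed genes 6 were measured, and none was at least 2-fold apart on the log2(FPKM + 1) scale. Among all measured genes 2.44% were at least 2-fold lower and 2.10% higher. Higher FPKM in APL#2 was found for 4 of the 6 and lower for 2, beside 71.6% of all measured genes that were lower. The list median of 0.32 became 0.06 when genes with a mean of at least 0.5 FPKM were counted. Arhgef1, which activates Rhoa, stood at 8.44 FPKM in APL#2 and 11.3 FPKM in APL#1, Rhoa itself at 4.58 FPKM in APL#2 and 4.90 FPKM in APL#1, and the tetraspanin Cd81, which can bind Gpr56, at 3.77 FPKM in APL#2 and 2.17 FPKM in APL#1. Cd9, another tetraspanin, stood at 3.34 FPKM in APL#2 and 1.59 FPKM in APL#1, and the G protein gene Gnaq at 2.13 FPKM in APL#2 and 0.676 FPKM in APL#1. Their plain ratios were 2.10 for Cd9 and 3.15 for Gnaq; both were picked once their values were known. Gnaq lies on chromosome 19, where the 20 measured genes nearest to it had a median difference of 0.43. The ligand genes Tgm2 and Col3a1 were at or near 0.

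Among the transcriptional regulators, Lmo2 differed most, and most genes around it were lower in APL#2 too. Lmo2 is a bridging protein that joins Tal1, GATA and E-protein factors on DNA. It stood at 3.03 FPKM in APL#2 and 6.87 FPKM in APL#1, on about 288 and 602 fragments, and was 2.26-fold higher in APL#1 (counting interval 1.96 to 2.61, or 1.72 to 2.98 on the shortest coding transcript). The log2 difference of -0.96 was reached or passed by 2.71% of measured genes, and the implied standard error in the authors' deposited table was 1.15. Lmo2 lies on mm9 chromosome 2, from 103798151 to 103822035.

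The 20 measured genes nearest to Lmo2 had a median ratio of 0.455, APL#2 over APL#1, beside 0.442 for Lmo2. On the log2(FPKM + 1) scale their median difference was -0.64, and 19 of the 20 lay below the median of all genes. The flanking genes were Caprin1, which encodes an RNA-binding protein (1.30 FPKM in APL#2 and 2.87 FPKM in APL#1), Cd44, the hyaluronan receptor (1.02 FPKM in APL#2 and 1.91 FPKM in APL#1), Eif3m, a subunit of a translation initiation factor (0.915 FPKM in APL#2 and 2.00 FPKM in APL#1), and Mettl15 (1.03 FPKM in APL#2 and 1.77 FPKM in APL#1). Of the 20 neighbours, 4 had a difference as low as that of Lmo2. Gpr56 and Cd34 were lower than each of their neighbours, whereas Lmo2 lay within the range of its own.

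**Figure D3:**
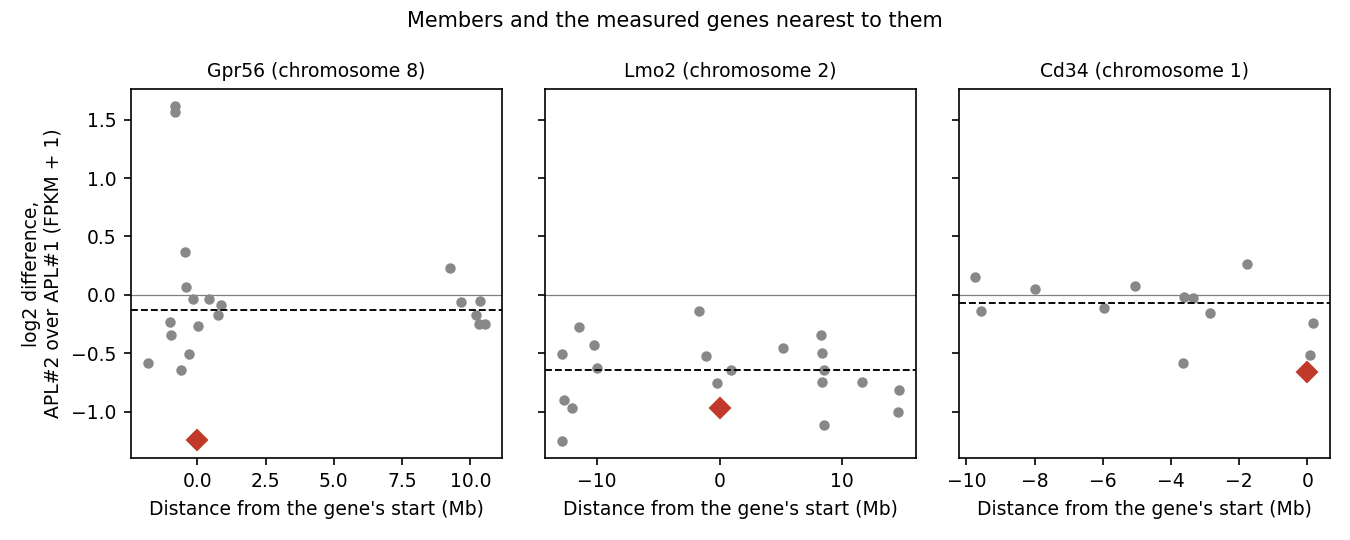
Log2 difference, APL#2 over APL#1, of Gpr56, Lmo2 and Cd34 (red diamonds) and of the measured genes nearest to each, up to 10 on either side (grey points), against distance in Mb from the start of the gene; the dashed line is the median of those neighbours. The dashed line stands at -0.13 for Gpr56, -0.64 for Lmo2 and -0.07 for Cd34.

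The partners of Lmo2 were lower in APL#2 about as often as all measured genes, but their median difference was lower. Of 16 listed genes 12 were measured, and 9 of these had lower FPKM in APL#2, beside 71.6% of all measured genes. Of the 12, 9 lay below and 3 above the median of all measured genes (-0.17), which splits those genes evenly, and the list median was -0.30. None was at least 2-fold apart on the log2(FPKM + 1) scale. Lyl1, a helix-loop-helix factor that binds Lmo2, stood at 4.72 FPKM in APL#2 and 5.69 FPKM in APL#1, and the related LIM-only gene Lmo4 at 3.69 FPKM in APL#2 and 5.86 FPKM in APL#1. Ldb1, the protein that dimerises such complexes, went the other way, at 4.48 FPKM in APL#2 and 2.52 FPKM in APL#1. It lies on chromosome 19, where its 20 nearest measured genes had a median difference of 0.45. Gata2, a GATA factor of stem cells and mast cells, was picked once its values were known and stood at 1.83 FPKM in APL#2 and 3 FPKM in APL#1. Tal1 was listed at 0 in both libraries, and Gata1 stood at 0.0504 FPKM in APL#2 and 0.0327 FPKM in APL#1.

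Erg, an ETS factor needed for stem cell maintenance, differed less. It stood at 2.05 FPKM in APL#2 and 2.78 FPKM in APL#1, on about 370 and 465 fragments, with a ratio of 0.737 (counting interval 0.640 to 0.845). Its log2 difference of -0.31 was close to the median of -0.25 over its 13 nearest measured genes on chromosome 16. Of 19 other ETS genes 6 were measured, with a list median of -0.18 and none at least 2-fold apart. Sfpi1, which encodes PU.1, stood at 5.74 FPKM in APL#2 and 8.55 FPKM in APL#1, Etv6 at 7.98 FPKM in APL#2 and 5.45 FPKM in APL#1, and Elf1 at 2.82 FPKM in APL#2 and 4.32 FPKM in APL#1. Sfpi1 lies on chromosome 2, where its 20 nearest measured genes had a median difference of -0.85. Etv6 had a difference of 0.48 and lies on chromosome 6, where the measured genes nearest to it had a median of 0.28.

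Meis1 and Hoxa9, partner homeodomain factors of self-renewing leukaemias, were listed at 0 in both libraries, and so were nearly all Hox genes. A listed 0 can be a failed estimate in such a table, since Rpl26, a ribosomal protein gene that every cell uses, was also listed at 0 in both. Of 39 Hox genes, 34 were at 0 in both libraries, among them 10 of 11 Hoxa genes. The other 5 had a value above 0 in APL#2 and 0 in APL#1, the highest being Hoxb4 at 0.171 FPKM; Hoxb3 stood at 0.0457, Hoxb2 at 0.0113, Hoxc9 at 0.0107 and Hoxa11 at 0.00793 FPKM in APL#2. These 5 were picked once their values were known. Over all 23235 genes, 9860 were at 0 in APL#2 and more, 10322, in APL#1. With 1 fragment on 1 kb worth about 0.0180 FPKM in APL#2, the lowest of these Hox values rest on very few fragments. Of the TALE cofactor genes, Pbx4 stood at 1.46 FPKM in APL#2 and 1.44 FPKM in APL#1, and Pbx2 at 0.978 FPKM in APL#2 and 1.23 FPKM in APL#1. Of 11 genes whose proteins regulate Hoxa genes, 4 were measured and none was at least 2-fold apart: Aff1 (1.65 FPKM in APL#2 and 1.83 FPKM in APL#1), Mllt10 (1.38 and 1.596 FPKM in APL#2 and APL#1) and Psip1 (1.08 and 1.53 FPKM in APL#2 and APL#1) led the list.

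Bmi1, of Polycomb repressive complex 1, had similar low levels in the leukaemias. It stood at 0.405 FPKM in APL#2 and 0.382 FPKM in APL#1, on about 81 and 71 fragments, and the counting interval of the ratio ran from 0.757 to 1.47. The neighbouring gene Commd3, which ends 0.801 kb before Bmi1, stood at 2.03 FPKM in APL#2 and 2.01 FPKM in APL#1. Of 21 genes of the complex and its targets, 4 were measured and none was at least 2-fold apart on the log2(FPKM + 1) scale. The list median was 0.13, and -0.11 when genes with a mean of at least 0.5 FPKM were counted. Pcgf1, a relative of Bmi1, stood at 4.95 FPKM in APL#2 and 3.78 FPKM in APL#1. Pcgf5, another relative, stood at 2.08 FPKM in APL#2 and 0.670 FPKM in APL#1, a plain ratio of 3.11, and lies on chromosome 19, where its 20 nearest measured genes had a median difference of 0.44.

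Cdkn2a, which encodes the cell cycle inhibitor p16Ink4a and the p53 activator p19Arf and is a known target of Bmi1, was picked once its values were known. It stood at 0.658 FPKM in APL#2 and 0.0482 FPKM in APL#1, a ratio of 13.6. In the authors' deposited table its p-value was 0.0413, its q-value rounded to 1.00 and its implied standard error was 1.85 on the log2 scale. Cbx6, another gene of this list picked in the same way, lay in the opposite direction, at 0.0185 FPKM in APL#2 and 0.373 FPKM in APL#1, a ratio of 0.0495.

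Msi2, a Musashi RNA-binding protein that supports stem cells and myeloid leukaemias, had a higher value in APL#2, with a large error. It stood at 0.895 FPKM in APL#2 and 0.151 FPKM in APL#1, a ratio of 5.92 (counting interval 4.38 to 8.14). Its mean was below 1 FPKM, so it was not measured by the rule above, and on the log2(FPKM + 1) scale its difference was 0.72. Among 4092 genes with a mean from 0.3 to 1 FPKM and above 0 in both libraries, 3.42% had a ratio of at least 2. The error of this value is large: the standard error implied by the authors' deposited table was 5.04, the highest of the members, and the p-value there was 0.611. The fragments behind it depend on the transcript, from about 320 in APL#2 and 50 in APL#1 on the longest coding transcript to 20 in APL#2 and 3 in APL#1 on the shortest. Of 15 genes of the Musashi, Numb and Notch list only the RNA-binding protein gene Syncrip was measured, at 1.61 FPKM in APL#2 and 2.11 FPKM in APL#1. Numb, a repressed target of Musashi proteins, stood at 0.725 FPKM in APL#2 and 0.749 FPKM in APL#1, and Igf2bp2, which binds RNA as well, at 0.875 FPKM in APL#2 and 0.199 FPKM in APL#1; both were picked once their values were known.

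Other stem cell genes were spread in both directions. Of 39 genes 8 were measured, 4 above and 4 below the median of all genes, with a list median of -0.01, which became -0.23 when genes with a mean of at least 0.5 FPKM were counted. The 1 gene at least 2-fold apart was Clec12a, a lectin receptor found on myeloid cells and on leukaemic stem cells in humans, at 23.4 FPKM in APL#2 and 9.88 FPKM in APL#1, a log2 difference of 1.16. Of these 39 genes 16 were at 0 in both libraries, among them Mecom, Prdm16 and Procr. Over all 23235 genes, 9860 were at 0 in APL#2 and 10322 in APL#1. Over all 10 lists around the members, 54 of 186 genes were measured, with a median difference of -0.15. On the log2(FPKM + 1) scale 1 was at least 2-fold higher and none at least 2-fold lower, beside 2.10% and 2.44% of all measured genes. As plain ratios 4 were at least 2-fold higher and 1 was at least 2-fold lower, beside 2.79% and 6.32%.

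**Figure D4:**
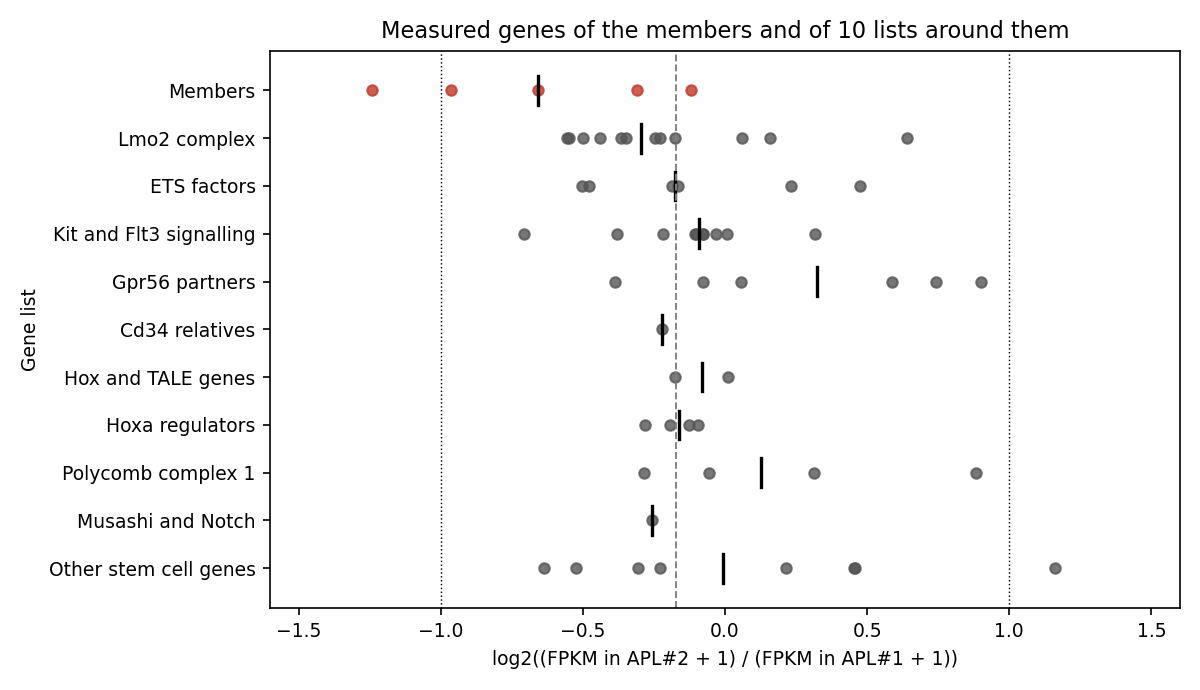
Log2 difference, APL#2 over APL#1, of the 5 measured members (red) and of the measured genes in the 10 lists around them (grey; some genes are in more than 1 list), with a bar at each median, a dashed line at the median of all measured genes (-0.17) and dotted lines at 2-fold. The members' median of -0.66 lies left of the median of each of these 10 lists, some of which hold only 1 measured gene. Clec12a at 1.16 is the 1 list gene beyond 2-fold on this scale. Cell type lists are not plotted: their medians were -1.23 (mast cell and basophil), -0.82 (endothelial, 1 measured gene), -0.50 (promyelocyte) and 0.57 (megakaryocyte, 1 measured gene).

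With 2 libraries a pattern is only a point in a plane, and how close the nearest genes lay varied between members. By distance between log2(FPKM + 1) values, the genes nearest to Gpr56 were Pdia6 and Dgkz, to Lmo2 Cbx3 and Swi5, to Cd34 Cuta and Atp5j, to Erg Rab8a and Sirt3, and to Kit Tbc1d8 and Wibg. Pdia6, for example, stood at 2.95 FPKM in APL#2 and 8.20 FPKM in APL#1. The distances ran from 0.0079 (Tbc1d8 to Kit) to 0.19 (Dgkz to Gpr56).

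Many defining markers of other cells that can carry these genes were listed at 0. So were 9860 of all 23235 genes in APL#2 and 10322 in APL#1, and a listed 0 can be a failed estimate, as for Rpl26. In such bulk RNA, fewer cells of a type and less RNA in each cell cannot be told apart. Kit marks mast cells: of 13 mast cell and basophil genes 7 were at 0 in both libraries, among them Tpsab1, Cma1 and Fcer1a, and the summed level was 18.6 FPKM in APL#2 and 53.3 FPKM in APL#1, set by Cpa3 (7.09 and 41.3 FPKM in APL#2 and APL#1), Hdc (1.24 and 7.75 FPKM in APL#2 and APL#1) and Mcpt8 (8.04 and 1.02 FPKM in APL#2 and APL#1). Their part in the levels of Kit and Gata2 was not tested. Cd34, Erg and Lmo2 are also active in endothelium: of 12 endothelial genes 7 were at 0 in both libraries, Cdh5 stood at 0.00428 FPKM in APL#2 and was listed at 0 in APL#1, and the summed level was 1.91 FPKM in APL#2 and 4.70 FPKM in APL#1. Most of that sum was Pecam1, which granulocytes and progenitors also express, at 1.62 FPKM in APL#2 and 3.62 FPKM in APL#1. Egfl7 stood at 0.152 FPKM in APL#2 and 0.656 FPKM in APL#1, and Flt1 at 0.136 FPKM in APL#2 and 0.420 FPKM in APL#1. The part of endothelial cells in the levels of Cd34, Erg and Lmo2 was not tested. Of 11 megakaryocyte genes 7 were at 0 in both libraries, including Pf4, and the summed level of 4.14 FPKM in APL#2 and 2.44 FPKM in APL#1 was mostly Itga2b, also a progenitor gene (3.95 FPKM in APL#2 and 2.34 FPKM in APL#1).

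Lymphoid markers were low and higher in APL#2. All 8 T cell genes had higher FPKM in APL#2, with a summed level of 0.315 FPKM in APL#2 and 0.0526 FPKM in APL#1. All 7 B cell genes in the table did so too, with a summed level of 0.487 FPKM in APL#2 and 0.223 FPKM in APL#1. Thy1, which marks both stem cells and T cells in mice, stood at 0.232 FPKM in APL#2 and 0.0114 FPKM in APL#1; it was picked once its values were known. The part of lymphoid cells in the level of Thy1 was not tested. None of the 10 erythroid genes in the table was measured, and they summed to 0.580 FPKM in APL#2 and 0.787 FPKM in APL#1.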

How the data were processed

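The data are 1 gene table over 2 libraries, APL#2 and APL#1, grouped by the sample descriptions. Cuffdiff, Cufflinks, TopHat2 2.0.10 and the mm9 build are named, without their roles, in the submitters' processing notes. The value columns deposited by the authors were read as FPKM from the table's layout and values, since its header names no unit; they summed to 35240 in APL#2 and 34894 in APL#1. The deposited table also holds the authors' test statistic, a score per gene, and their p-value and q-value, per the file headers. The authors' log2 column was not used, because it holds placeholders where a library is at 0.

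Members were matched by symbol. A pseudocount of 1 was added before logs were taken, so differences of low genes come out too small, and 2-fold means a log2 difference of at least 1 in size among genes with mean FPKM of at least 1. Implied standard errors are the plain log2 ratio divided by the authors' test statistic, whose sign runs opposite to the ratio. Fragments per FPKM were estimated from low genes with 1 transcript whose values in the libraries stood in the commonest ratio. Of 58 such genes, 27 lay in a window of 0.015 to 0.025 (FPKM times transcript length in kb) in APL#1, placed around their main cluster after seeing the data, and their median was used. Transcript lengths were those of GENCODE M21; PCR duplicates cannot be seen, so intervals cover counting error only. Neighbours are the 10 nearest measured genes on each side. The named genes are all members and, for each list, the measured genes at least 2-fold apart or otherwise up to 3 of highest mean; a few of these are not reported here. The members and lists were chosen with earlier results of these data known. The calls were run on values of well expressed genes with known folds put in, and the ratio intervals on large simulated Poisson counts. Neither run held variation between libraries or genes with few fragments, so they say nothing about those. Tools were Python 3.11.15, pandas 2.3.3, numpy 2.4.6 and scipy 1.17.1.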

Additional observations from a re-analysis of the deposited data

How the results depend on the processing

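No paired analysis was possible because each leukaemia has 1 library, and for the same reason no library could be left out. The 8 members above 0 were recomputed under 5 alternatives, and 38 of 40 differences kept their sign; the exceptions were those of Kit when scaled to the median ratio (0.03) or the upper quartile (0.02). Those scalings moved the median of all measured genes by 0.17 and 0.16. Members at least 2-fold lower numbered 2 in place of 1 with a pseudocount of 0.1 or 0.5 and as plain ratios, since Lmo2 then passed, and no measured member was at least 2-fold higher. The difference of Gpr56 ranged from -1.46 to -1.04 and that of Msi2 was 1.99 with a pseudocount of 0.1. That of Cd34 shrank from -0.66 to -0.44 when scaled to the median ratio and to -0.46 when scaled to the upper quartile. Of the genes in the 10 lists, 1 was at least 2-fold lower with a pseudocount of 0.1 or as a plain ratio, and 4 were at least 2-fold higher in those settings, against 3 with a pseudocount of 0.5 or scaled to the median ratio or upper quartile. The share of all genes at least 2-fold lower was 1.58% with a mean of at least 0.5 FPKM and 0.452% with no minimum, and the share at least 2-fold higher was 0.413% with no minimum and 1.32% without small RNA genes. With no minimum all 10 members count as measured. Leaving out small RNA genes, and plain ratios, were chosen after seeing the data. Depth limits Flt3, which rests on about 2 fragments in APL#2 and 1 in APL#1.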
